A study of Mus musculus with 32 samples.

Results

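The double transgenic dnPI3K-Mst1 mouse was compared with its non-transgenic control, Ntg, in the atrial samples with a high signal of Bmp10. The members are the 8 arrays of these genotypes in which Bmp10 exceeded 9 log2, out of 32 arrays in all. They hold 1 array from each of 4 dnPI3K-Mst1 animals and 4 Ntg animals. The series profiled the atria of 16 mice of 4 genotypes on Affymetrix Mouse Gene 1.0 ST arrays, with an array labelled left and an array labelled right from each mouse. dnPI3K animals carry a dominant negative form of phosphoinositide 3-kinase, Mst1 animals a transgene for the kinase Mst1, and dnPI3K-Mst1 animals carry both of these. Ntg animals carry neither, and all groups share a mixed C57BL/6 and FVB/N background. The promoter of the transgenes, the part of PI3K that was altered, and the age and sex of the animals are not given in the sources used here. All values are log2 signals of whole atrial tissue as deposited, and differences are dnPI3K-Mst1 minus Ntg.

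Bmp10 encodes a secreted ligand of the bone morphogenetic protein family that adult mice make mainly in the myocytes of the right atrium. Mst1, the product of Stk4, belongs to the Hippo kinase cascade, whose activity keeps the coactivator YAP out of the nucleus, and in cardiac myocytes it is known to promote apoptosis and dilated disease. PI3K signalling passes growth factor and insulin signals to AKT and is regarded as protective in the heart, so that its loss together with a disease stimulus is known to worsen failure. Failing myocardium is known for lower expression of genes for mitochondrial energy production, higher expression of natriuretic peptides and more extracellular matrix.

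Because Bmp10 chose the arrays, its values are given as a description. In the dnPI3K-Mst1 arrays, listed here and below in the order of animals 1509, 1647, 1649 and 1650, Bmp10 read 12.30, 12.23, 12.60 and 12.39 log2. In the Ntg arrays, listed in the order 1301, 1657, 1662 and 1834, it read 12.31, 12.52, 12.28 and 12.51 log2. The groups cover the same range, and no array lies near the threshold: the lowest of the 8 was 12.23, and the highest of these animals' other arrays was 5.62 log2. Over all 32 arrays the nearest values on either side were 11.42 and 6.64 log2. All 4 dnPI3K-Mst1 arrays are labelled left, whereas Ntg 1657 and 1834 are labelled left and Ntg 1301 and 1662 right. The side label therefore differs between the groups while Bmp10 does not, and 6 of the 8 arrays bear the label opposite to the chamber in which Bmp10 is known to be made. Which of the labels and the marker gives the true side was not tested.

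**Figure D1:**
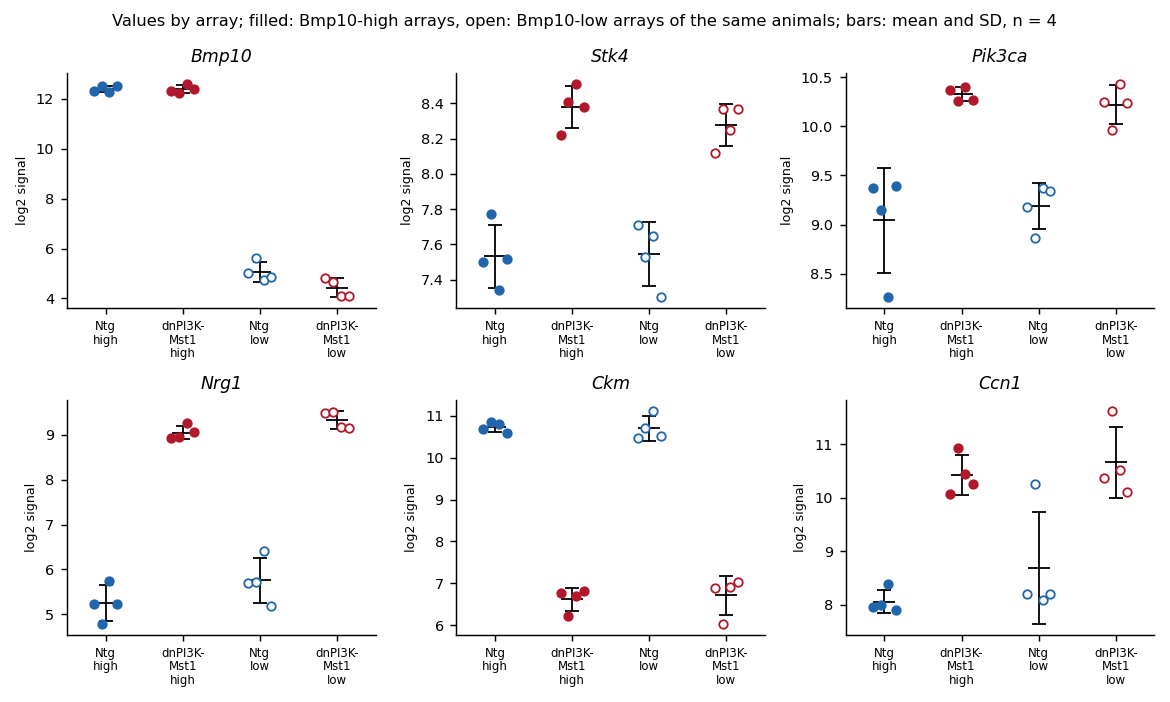
Log2 signal (vertical axis) of Bmp10, Stk4, Pik3ca, Nrg1, Ckm and Ccn1 in the Bmp10-high arrays (filled points) and the Bmp10-low arrays (open points) of the same 8 animals, with bars for the mean and SD of 4 arrays. Bmp10 separates the arrays of an animal, and the other 5 genes separate the genotypes in the Bmp10-high arrays without overlap.

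Stk4, the gene of Mst1, and Pik3ca, a PI3K subunit gene, were higher in the double transgenic, while the subunit gene Pik3r1 was lower. Stk4 read 8.22, 8.41, 8.51 and 8.38 log2 in dnPI3K-Mst1 and 7.5, 7.77, 7.34 and 7.52 in Ntg, a difference of 0.85 ± 0.10 (SE), or 1.8-fold (adjusted p = 2.8e-05, limma with Benjamini-Hochberg adjustment, as for every adjusted p below). Pik3ca, the gene of the p110α catalytic subunit, read 10.37, 10.26, 10.40 and 10.27 log2 against 9.37, 9.15, 8.26 and 9.39, a difference of 1.28 ± 0.19 or 2.43-fold (adjusted p = 0.00015). Neither gene overlapped between the groups. Ntg 1662 lies about 1 log2 unit below the other Ntg arrays for Pik3ca, and without it the difference was 1.02. Pik3r1, the gene of a regulatory subunit, fell by 0.54 ± 0.15 (adjusted p = 0.015), although dnPI3K-Mst1 1509 at 9.16 log2 lay above Ntg 1662 at 9.02. Which probes match the transgenes is not given in the sources used here, so these levels add up native and any transgenic transcript.

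Of 15237 genes tested, 3685 (24.2%) were called at an adjusted p under 0.05 between dnPI3K-Mst1 and Ntg. Of these 1950 (12.8% of genes tested) were higher and 1735 (11.4%) lower in the double transgenic, and 194 and 190 of them by 2-fold or more. The 4 arrays of a genotype did not overlap with the 4 of the other in 3953 genes (25.9%), and 3227 genes were both called and free of overlap. The median difference over all genes was 0.016, the median SE 0.11, and the smallest difference called 0.22. With each array centred on its median, 1300 genes were higher and 1969 lower, so 39.8% of the calls were higher in place of 52.9%. Array medians lay between 5.52 and 5.68 log2, and pairs of the 8 arrays correlated at 0.9635 to 0.9883. Ntg 1662 had the lowest mean correlation with the others, 0.9715. All p-values rest on the spread among these 8 animals, and in whole tissue fewer cells of a type and less RNA per cell cannot be told apart.

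The largest fall was in energy transfer, in a ranking of called genes without overlap that left out Xist, Y-linked genes and unnamed gene models. Ckm encodes the cytosolic muscle creatine kinase, which regenerates ATP at the myofibrils from phosphocreatine. It read 6.77, 6.22, 6.69 and 6.81 log2 in dnPI3K-Mst1 against 10.68, 10.85, 10.81 and 10.58 in Ntg, a difference of -4.11 ± 0.12 or 17.2-fold (adjusted p = 6.1e-11). Ckmt2, its mitochondrial partner, read 8.24, 7.26, 7.73 and 7.69 against 10.56, 10.38, 10.87 and 10.48 log2, a difference of -2.84 ± 0.16 or 7.18-fold (adjusted p = 3.1e-08). The gap between the groups in both genes was far wider than the spread within either. Of 13 tested genes of creatine and adenylate energy transfer 7 fell. Slc6a8, the creatine transporter, was called higher (0.40), a call lost on leaving out any one of 6 arrays (dnPI3K-Mst1 1509, 1649 or 1650, Ntg 1301, 1657 or 1834). Among those that fell was Vdac1, a channel of the outer mitochondrial membrane, at -0.90.

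The respiratory chain and the fuel pathways that feed it were lower across nearly all members. Of 78 tested genes of oxidative phosphorylation 76 fell and 0 rose, with a median difference of -0.75 against 0.016 over all genes. Of the 78 genes 73 did not overlap between the groups, against 25.9% of all genes. Cox7a1, the muscle form of a cytochrome c oxidase subunit, read 9.54, 8.83, 9.13 and 9.47 log2 against 11.23, 11.12, 11.34 and 11.26, a difference of -1.99 ± 0.13 or 3.98-fold (adjusted p = 9.7e-08). Its oxidase partner Cox8b fell by 1.38, and subunits of complex I such as Ndufs6 (-1.16), Ndufs8 (-1.15) and Ndufs1 (-0.89) and of ATP synthase such as Atp5g1 (-1.13) fell as well. All 22 tested genes of the citrate cycle fell, with a median of -0.82. The largest fall among them was that of Idh3b, a subunit of isocitrate dehydrogenase, which fell by 1.20 ± 0.097 (adjusted p = 6.7e-07), and Cs, citrate synthase, fell by 0.60. In Cs the 4 Ntg arrays lay between 10.83 and 10.85 log2 and the 4 dnPI3K-Mst1 arrays between 10.05 and 10.33.

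Fatty acid handling followed the same direction, with 30 of 34 tested members lower, 0 higher and a median of -0.95. Dgat2, which makes triglyceride and moved most, fell by 2.22 ± 0.11 or 4.67-fold (adjusted p = 8.2e-09). Acaa2, the last enzyme of the mitochondrial β-oxidation spiral, read 10.01, 9.36, 9.57 and 9.54 log2 against 11.06, 11.02, 10.92 and 11.18 and fell by 1.43 ± 0.12. The carrier Fabp3 fell by 0.96 and the trifunctional enzyme subunit Hadha by 0.98. Outside the list, the carboxylesterase Ces1d was 7.37, 6.97, 7.15 and 7.19 log2 against 9.69, 9.81, 9.34 and 10, a difference of -2.54 or 5.82-fold. Neither Acaa2 nor Ces1d overlapped between the groups.

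Genes of glucose use were mixed. Of 26 tested, 14 fell and 4 rose, with a median of -0.41. Slc2a4, the insulin-responsive glucose transporter, fell by 1.04 ± 0.086 (adjusted p = 7.8e-07). The muscle hexokinase Hk2 (-0.69), the muscle enolase Eno3 (-1.39) and the glycogen synthase Gys1 (-1.22) also fell. Slc2a1, the transporter of most other cells, rose by 0.80 ± 0.11 (adjusted p = 8.4e-05), from 7.35, 7.3, 7.17 and 7.06 log2 in Ntg to 7.98, 7.75, 8.21 and 8.16. The 2 transporters therefore moved in opposite directions, each without overlap.

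The machinery that maintains mitochondria was lower in part. Of 74 tested mitochondrial ribosomal protein genes 48 fell and 0 rose, with a median of -0.44, whereas of 43 tested genes of the cytosolic ribosome 3 fell and 1 rose, with a median of 0.0014. Among 19 regulators of mitochondrial genes 6 fell and 1 rose. Rxrg, a retinoid X receptor, moved most and fell by 1.81 ± 0.15 or 3.52-fold (adjusted p = 1.0e-06). Ppara, a receptor that drives fatty acid oxidation genes, fell by 0.60, and Tfam, which packs mitochondrial DNA (-0.50), and Esrra, an estrogen-related receptor (-0.39), fell too. Ppargc1a, the coactivator of these factors, differed by -0.17 ± 0.12 (adjusted p = 0.35). Among antioxidant genes 9 of 35 fell and 4 rose, beside 11.4% of all genes called lower and 12.8% called higher. Those lower include the mitochondrial peroxiredoxin Prdx3 (-1.20) and superoxide dismutase Sod2 (-0.85).

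**Figure D2:**
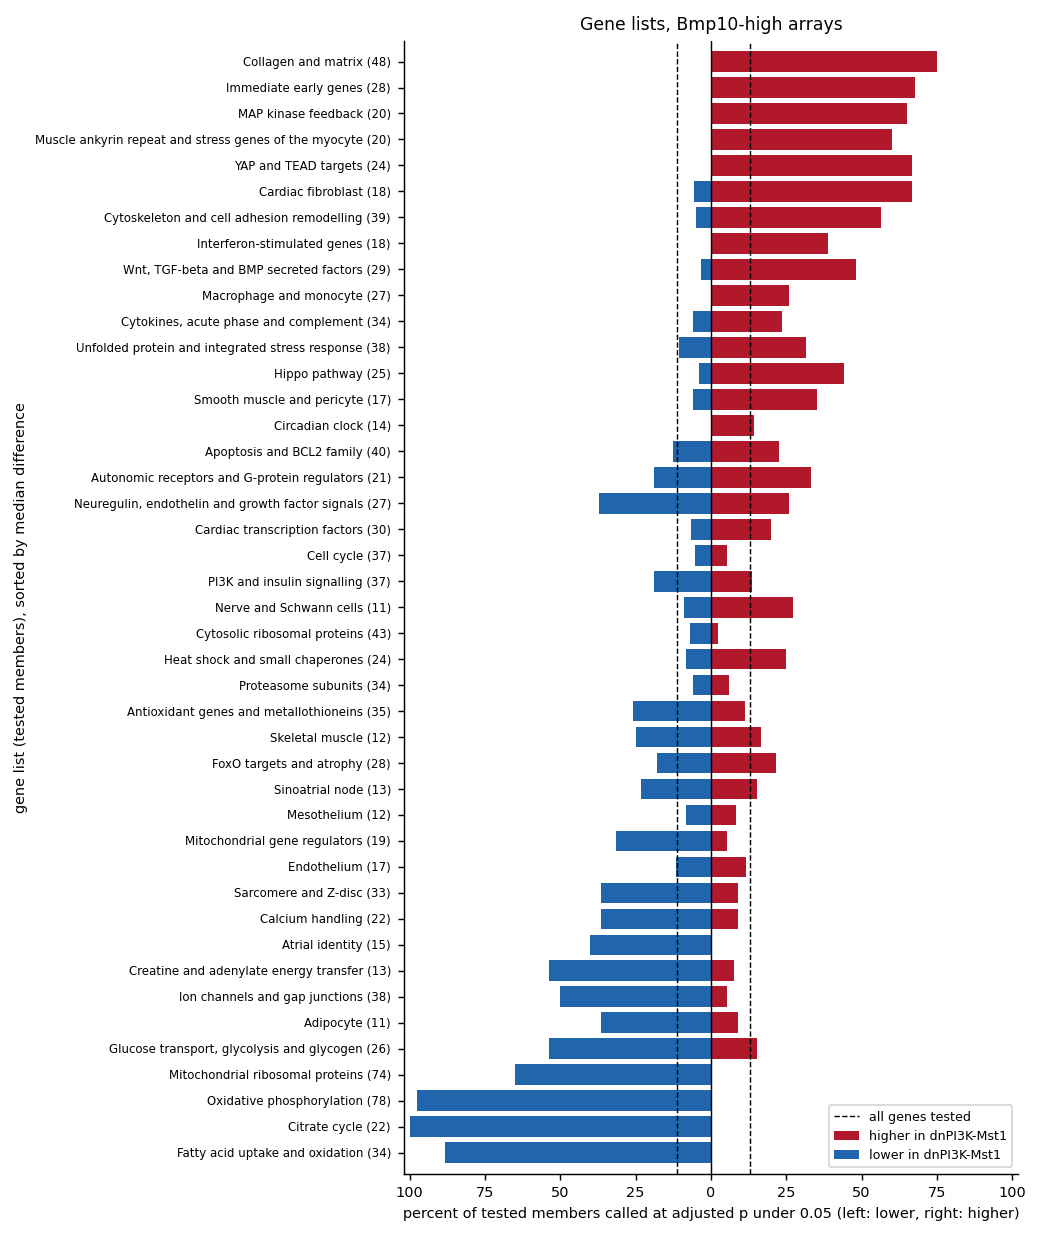
Percent of tested members called higher (red, right) or lower (blue, left) in dnPI3K-Mst1 for each gene list with 10 or more tested members, sorted by median difference, with dashed lines at the 12.8% and 11.4% of all genes. The citrate cycle, oxidative phosphorylation and fatty acid lists have 22 of 22, 76 of 78 and 30 of 34 members lower, and the matrix list has 36 of 48 higher.

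Secreted signals were among the genes that rose most, and Nrg1 led the rises in the same ranking. Nrg1, neuregulin, a growth factor that endothelial cells send to the ErbB receptors of myocytes, read 8.93, 8.94, 9.26 and 9.05 log2 against 5.23, 4.78, 5.75 and 5.24, a rise by 3.79 ± 0.16 or 13.9-fold (adjusted p = 1.9e-09). Edn1, the vasoconstrictor endothelin, read 8.71, 8.61, 8.76 and 8.73 against 6.07, 5.88, 6.31 and 5.56 log2, a rise by 2.75 ± 0.13 or 6.72-fold (adjusted p = 6.2e-09). Every double transgenic array lies well above every Ntg array in both genes. The other ErbB ligands Ereg and Hbegf rose by 1.48 ± 0.16 and 1.29 ± 0.094 (adjusted p = 8.2e-06 and 2.6e-07). Of 27 tested genes of the neuregulin, endothelin and growth factor list 7 rose and 10 fell.

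The genes that fell on that list are mostly receptors, precursors and other ligands. Erbb4, a neuregulin receptor of myocytes, read 8.7, 8.36, 8.54 and 8.24 log2 against 9.01, 9.5, 9.16 and 9.49 and fell by 0.83 ± 0.13 (adjusted p = 0.00020). The endothelin receptor gene Ednrb (-0.91) and the angiotensin receptor gene Agtr1a (-0.97) fell, and Agt, angiotensinogen, fell by 1.44 ± 0.10 (adjusted p = 2.6e-07). Ace, the enzyme that makes angiotensin II, moved the other way and rose by 1.70 ± 0.13 or 3.25-fold (adjusted p = 5.2e-07). Thus Nrg1 and Edn1 were higher where a receptor of each was lower.

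Among secreted factors of the Wnt, TGF-β and BMP families 14 of 29 tested rose and 1 fell. Sfrp2, a secreted modulator of Wnt signalling, read 11.2, 11.15, 10.87 and 10.69 log2 against 8.46, 8.12, 8.64 and 7.68, a rise by 2.76 ± 0.17 or 6.76-fold (adjusted p = 6.1e-08). Its relative Sfrp5 was the gene that fell, from 7.91, 7.4, 5.98 and 7.53 log2 in Ntg to 5.26, 4.81, 4.53 and 4.93, a difference of -2.32 ± 0.30 or 5-fold (adjusted p = 4.8e-05). Here too Ntg 1662 was lower than the other Ntg arrays, though still above all dnPI3K-Mst1 arrays, and without it the difference was -2.73. The BMP ligands Bmp4, Bmp6 and Bmp2 rose by 1.67 ± 0.18, 1.43 ± 0.086 and 1.20 ± 0.17, and Tgfb2 rose by 0.99. Bmp10 itself, which chose the arrays, is among the 29 tested genes and was not called.

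Genes that answer to YAP and its DNA-binding partners, the TEAD factors, were higher. Of 24 tested targets 16 rose and 0 fell, with a median of 0.43. Ccn1, a matrix-bound signalling protein, read 10.06, 10.93, 10.44 and 10.26 log2 against 7.95, 7.99, 8.38 and 7.9, a rise by 2.37 ± 0.16 or 5.17-fold (adjusted p = 1.0e-07). Ccn2, also known as connective tissue growth factor, read 11.87, 11.53, 12.15 and 12.09 against 9.98, 9.93, 10.23 and 9.7 log2, a rise by 1.95 ± 0.13 or 3.86-fold (adjusted p = 1.5e-07). The receptor kinase Axl rose by 0.98 ± 0.11, the ectonucleotidase Nt5e by 1.17 and the angiomotin family member Amotl2 by 0.67. The stress protein Ankrd1, already among the brightest genes in Ntg at 12.34 to 12.50 log2, rose by 0.40 ± 0.074 (adjusted p = 0.0011) to 12.73 to 12.85. These genes are also matrix and stress genes, so the count of the list says nothing on which factor acts.

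Promoter sequences are shown for 3 of these targets because they hold the core TEAD recognition sequence. RefSeq windows of build GRCm38.p6, of which the 250 bases before the start site are printed 5′ to 3′ on the strand of the gene, cover 17 of the 24 tested targets. Capitals mark GGAATG read on either strand.
Ccn1: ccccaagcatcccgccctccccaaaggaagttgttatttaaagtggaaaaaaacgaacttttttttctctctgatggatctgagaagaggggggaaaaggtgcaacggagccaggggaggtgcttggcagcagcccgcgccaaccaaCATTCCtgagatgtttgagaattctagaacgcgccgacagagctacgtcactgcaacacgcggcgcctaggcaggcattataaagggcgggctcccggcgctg
Axl: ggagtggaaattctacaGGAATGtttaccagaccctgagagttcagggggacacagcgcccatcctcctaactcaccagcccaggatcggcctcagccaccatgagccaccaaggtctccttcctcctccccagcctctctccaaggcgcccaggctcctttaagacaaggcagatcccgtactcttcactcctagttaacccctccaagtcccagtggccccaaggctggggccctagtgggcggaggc
Ankrd1: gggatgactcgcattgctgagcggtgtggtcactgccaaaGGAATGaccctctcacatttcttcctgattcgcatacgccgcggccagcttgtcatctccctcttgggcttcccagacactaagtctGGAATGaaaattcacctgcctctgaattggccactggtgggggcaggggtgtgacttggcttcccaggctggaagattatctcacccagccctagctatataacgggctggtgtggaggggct
All 3 genes lie on the minus strand, at chr3:145649986-145650235 (Ccn1), chr7:25788734-25788983 (Axl) and chr19:36119845-36120094 (Ankrd1), each a promoter region before the first exon. GGAATG occurred in the 300-base windows of 8 of the 17 targets (47.1%), namely Ajuba, Amotl2, Ankrd1, Axl, Ccn1, Crim1, Lats2 and Ptpn14, against 16.6% of 27025 genes with a window. All 8 are among the targets that rose, and 13 of the 17 with a window rose. A match is a description of the letters in the window and shows no binding.

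The Hippo pathway itself moved in part. Of 25 tested members 11 rose and 1 fell, and the rises include Stk4, whose level adds up native and any transgenic transcript. Besides Stk4, the kinases Lats1 and Lats2, which act on YAP, rose by 0.35 and 0.38, and Sav1, the scaffold that holds Mst1, by 0.38. The fit of all 16 Bmp10-high arrays left 7 rises and did not call Lats1 or Lats2, and Lats1 also lost its call with arrays labelled left alone. Vgll3, a TEAD cofactor, rose most, from 5.65, 5.87, 6.02 and 5.87 log2 in Ntg to 7.35, 7.29, 7.01 and 7.27, by 1.38 ± 0.11 or 2.6-fold (adjusted p = 4.8e-07). Yap1 differed by 0.15 ± 0.086 (adjusted p = 0.23) and Wwtr1, the gene of the related TAZ, by 0.13 ± 0.076 (adjusted p = 0.24). Tead4 fell by 0.41, a call lost with arrays labelled left alone or without dnPI3K-Mst1 1647.

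Extracellular matrix genes rose in number and size. Of 48 tested collagen and matrix genes 36 rose and 0 fell, with a median of 0.68. Thbs4, a thrombospondin of stressed muscle, read 9.01, 9.4, 9.14 and 8.92 log2 against 5.35, 5.61, 5.82 and 5.87, a rise by 3.45 ± 0.13 or 10.9-fold (adjusted p = 4.7e-10). Thbs1, its relative and an activator of TGF-β, read 9.16, 10.57, 9.32 and 9.56 against 6.8, 6.97, 7.27 and 6.5 log2, a rise by 2.77 ± 0.24 or 6.82-fold (adjusted p = 1.2e-06). Ltbp2, Col12a1, Col8a1, the crosslinking enzyme Lox and the fibronectin gene Fn1 rose by 1.94, 1.87, 1.59, 1.49 and 1.14. Each of these 7 genes was free of overlap between the groups.

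The main fibrillar collagens were less clear in these arrays. Col1a1 read 9.92, 10.72, 10.37 and 10.34 log2 against 10.16, 10.04, 9.55 and 9.16, so the groups overlapped, and its rise by 0.61 ± 0.20 (adjusted p = 0.036) was lost on leaving out any one of 5 arrays (dnPI3K-Mst1 1647, 1649 or 1650, Ntg 1662 or 1834). Col3a1 differed by 0.36 ± 0.26 (adjusted p = 0.37), with 0.094 without Ntg 1834, 0.17 without dnPI3K-Mst1 1647, 0.54 without Ntg 1301 and 0.55 without dnPI3K-Mst1 1509. Postn, the gene of periostin, differed by -0.089 ± 0.22 (adjusted p = 0.82), and by -0.25 to 0.15 on leaving out 1 array. Of 18 tested fibroblast markers 12 rose and 1 fell, with Meox1, a transcription factor of activated fibroblasts, rising most, by 1.93 ± 0.21 or 3.82-fold (adjusted p = 1.1e-05). The mean level over the fibroblast list was 9.21 to 9.39 log2 in dnPI3K-Mst1 and 8.54 to 9.05 in Ntg, and its part in the matrix result was not tested.

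Many cytoskeletal and adhesion genes rose, and so did some genes of smooth muscle. Of 39 tested cytoskeleton and adhesion genes 22 rose and 2 fell. Nes, the intermediate filament nestin, read 8.21, 8.22, 8.88 and 9.13 log2 against 6.34, 6.25, 6.83 and 6.03, a rise by 2.25 ± 0.20 or 4.76-fold (adjusted p = 1.5e-06). The kinase gene Pak3, the hyaluronan receptor Cd44 and the integrin Itga5 rose by 2.14, 1.76 and 1.43. Itgb6, another integrin, fell by 2.54 ± 0.14 or 5.81-fold (adjusted p = 2.6e-08), from 7.04 to 7.75 log2 in Ntg to 4.6 to 5.01. Of 17 tested smooth muscle and pericyte markers 6 rose, 1 fell and 10 were not called, with a median of 0.17. Tagln, an actin-binding protein of smooth muscle, read 8.81, 9.19, 9.57 and 9.25 against 7.09, 6.81, 7.25 and 6.48 log2 and rose by 2.30 ± 0.17, Cnn1 rose by 2.07 and Acta2 by 1.25.

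**Figure D3:**
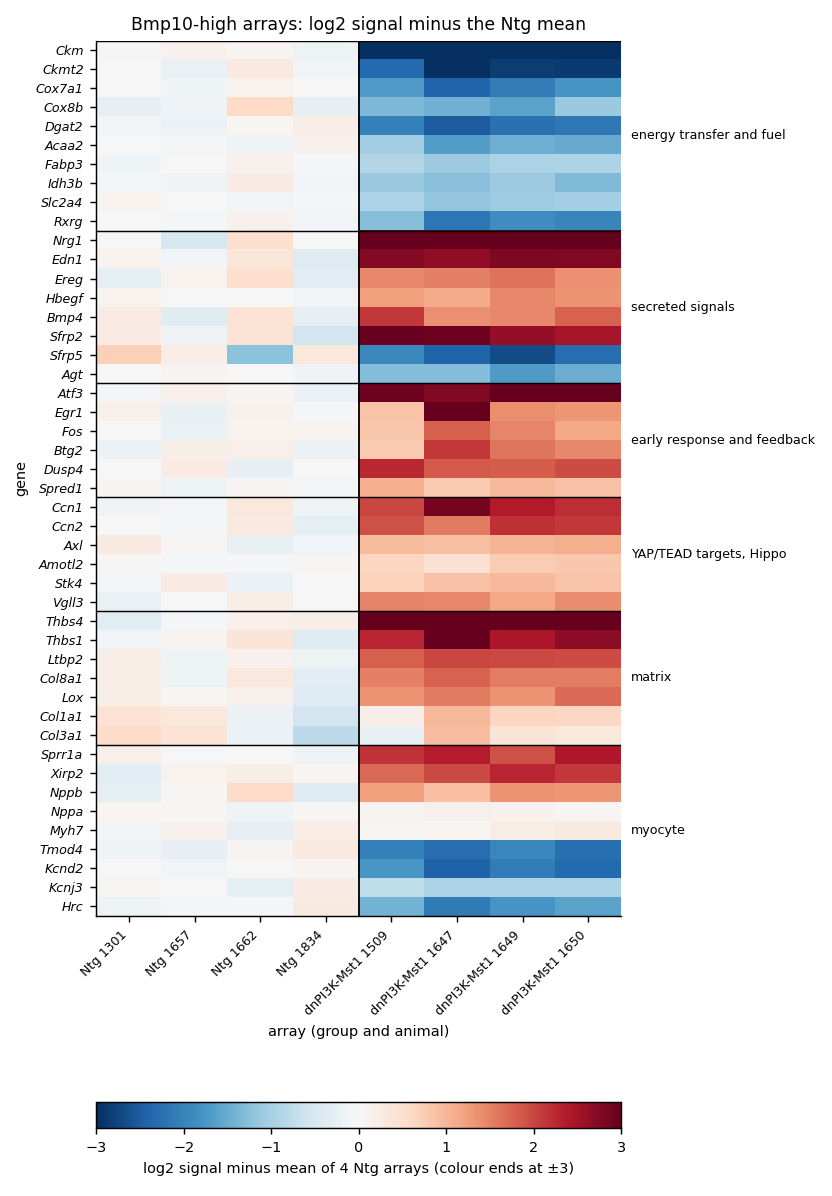
Log2 signal minus the mean of the 4 Ntg arrays (colour, ending at ±3) for leading genes (rows, grouped by role) in each Bmp10-high array (columns, Ntg left and dnPI3K-Mst1 right of the line). The 4 dnPI3K-Mst1 arrays share the direction for Ckm, Cox7a1, Nrg1, Edn1, Thbs4 and Sprr1a, and animal 1647 stands out for Egr1.

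Genes of the first wave of transcription after a stimulus were higher, and those that damp the MAP kinase cascade were too. Of 28 tested immediate early genes 19 rose and 0 fell, with a median of 0.66. Atf3, a stress-induced transcription factor, read 8.97, 8.81, 9.66 and 9.49 log2 against 5.99, 6.2, 6.12 and 5.86, a rise by 3.19 ± 0.16 or 9.12-fold (adjusted p = 8.2e-09). Fos rose by 1.31 ± 0.16 and Myc by 1.04 ± 0.14. Egr1 read 7.14, 9.49, 7.69 and 7.61 against 6.44, 6.07, 6.41 and 6.22 log2, a rise by 1.70 ± 0.35 (adjusted p = 0.0022), and Egr2 read 5.94, 9.28, 6.83 and 6.91 against 4.94, 5.38, 5.59 and 5.35, a rise by 1.92 ± 0.48 (adjusted p = 0.0080). Animal 1647 is well above the other double transgenic arrays in both genes. Without it the rises were 1.20 and 1.24, and with arrays labelled left alone 12 of the 28 genes rose.

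Btg2, an antiproliferative early gene, and Dusp1, a phosphatase that inactivates MAP kinases, carry the palindrome TGACGTCA of cyclic AMP response elements in their promoters. Their 250 bases before the start site, from RefSeq windows of GRCm38.p6, follow with the palindrome in capitals.
Btg2: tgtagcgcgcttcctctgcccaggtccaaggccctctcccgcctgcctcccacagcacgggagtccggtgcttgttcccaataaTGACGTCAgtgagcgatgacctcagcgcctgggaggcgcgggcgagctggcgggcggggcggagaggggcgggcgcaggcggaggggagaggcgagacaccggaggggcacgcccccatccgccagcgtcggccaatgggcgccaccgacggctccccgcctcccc
Dusp1: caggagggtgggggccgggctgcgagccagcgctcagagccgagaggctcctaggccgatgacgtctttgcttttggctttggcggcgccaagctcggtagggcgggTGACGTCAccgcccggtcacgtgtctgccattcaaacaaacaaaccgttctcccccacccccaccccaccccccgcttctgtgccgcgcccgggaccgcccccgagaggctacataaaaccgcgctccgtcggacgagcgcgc
They lie at chr1:134079156-134079405 (Btg2) and chr17:26508473-26508722 (Dusp1), both on the minus strand. Btg2 rose by 1.49 ± 0.20, from 6.84, 7.18, 7.16 and 6.84 log2 in Ntg to 7.79, 9.12, 8.62 and 8.44, and Dusp1 by 0.43 ± 0.14 with overlapping groups. The Dusp1 call was lost on leaving out any one of 5 arrays (dnPI3K-Mst1 1647 or 1649, Ntg 1301, 1657 or 1834), with arrays labelled left alone and with centred arrays. The palindrome was found in 3 of 22 early genes with a window (13.6%), the third being Maff, against 2.03% of all genes. The CArG box of serum response factor was found in 2 of the 22 (9.09%), Egr2 and Zfp36, against 1.81%, and the estrogen-related receptor motif TCAAGGTCA in 2 of 66 oxidative phosphorylation genes (3.03%), Atp5g3 and Sdhd, against 0.466%. Motifs were read on both strands.

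Of 20 tested genes of MAP kinase feedback 13 rose and 0 fell, with a median of 0.57. Dusp4, a phosphatase of ERK and JNK, read 7.58, 7.15, 7.12 and 7.27 log2 against 5.29, 5.55, 5.07 and 5.32, a rise by 1.98 ± 0.12 or 3.93-fold (adjusted p = 6.4e-08). Phlda1 rose by 1.77, the Sprouty gene Spry1 by 1.04 and Spred1, another inhibitor of the pathway, by 0.92 ± 0.092 (adjusted p = 4.6e-06). The 4 double transgenic arrays lie above all Ntg arrays in Dusp4 and Spred1.

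Myocyte stress genes rose, while the fetal myosin and Nppa did not pass the test. Of 20 tested muscle ankyrin repeat and stress genes 12 rose and 0 fell, with a median of 0.49. Sprr1a, a small proline-rich protein of stressed myocytes, read 7.86, 8.06, 7.6 and 8.11 log2 against 5.84, 5.69, 5.68 and 5.58, a rise by 2.21 ± 0.12 or 4.64-fold (adjusted p = 1.1e-08). Xirp2, an actin-binding protein of intercalated discs, rose by 2.03 ± 0.13 or 4.08-fold (adjusted p = 8.1e-08). Nppb, the gene of brain natriuretic peptide, read 12.36, 12.04, 12.49 and 12.46 against 10.87, 11.2, 11.71 and 10.75 log2 and rose by 1.20 ± 0.17 or 2.3-fold (adjusted p = 9.5e-05). Nppa, the atrial peptide gene, differed by 0.11 ± 0.076 (adjusted p = 0.35) at 13.24 to 13.53 log2. Myh7 and Myh6, the myosin heavy chains, differed by 0.15 ± 0.11 and -0.14 ± 0.095 (adjusted p = 0.38 and 0.33), and Myh6 was called without Ntg 1662 (-0.23).

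Contractile, calcium and atrial genes were lower in part. Of 33 tested sarcomere and Z-disc genes 12 fell and 3 rose, beside 11.4% of all genes called lower and 12.8% called higher. Tmod4, a cap of thin filaments, fell by 2.13 ± 0.12 or 4.38-fold (adjusted p = 3.4e-08), and the rises were those of Flnc, Xirp1 and Des. Of 22 tested calcium handling genes 8 fell and 2 rose, led by Dhrs7c (-1.89) and Hrc (-1.73), both proteins of the sarcoplasmic reticulum. Atp2a2, the reticulum calcium pump, fell by 0.29 ± 0.083 (adjusted p = 0.020) and Ryr2, the release channel, fell by 0.34 ± 0.11 (adjusted p = 0.043). Both were lost on leaving out single arrays, Atp2a2 without dnPI3K-Mst1 1650 or Ntg 1657 or 1834, and Ryr2 without any one of 6 arrays, and without Ntg 1657 or Ntg 1834 only 5 calcium handling genes fell. The 15 tested atrial identity genes include Bmp10, which chose the arrays. Of these 15 genes 6 fell and 0 rose, the falls including Myl7, the atrial light chain (-0.46), and Sln, sarcolipin (-0.61).

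Ion channels and gap junctions fell more often than they rose, 19 against 2 of 38 tested, with a median of -0.32. Kcnd2, a subunit of the transient outward potassium current, read 6.14, 5.44, 5.79 and 5.54 log2 against 7.89, 7.79, 7.86 and 7.97, a difference of -2.15 ± 0.13 or 4.44-fold (adjusted p = 5.1e-08). Kcnd3 (-0.78) and Kcnip2 (-0.77) of the same current fell, and so did Kcnj3, a subunit of the acetylcholine-activated channel (-0.90). Gja1 and Gja5, the connexins of atrial gap junctions, fell, with differences of -0.52 ± 0.086 and -0.55 ± 0.12 (adjusted p = 0.00037 and 0.0031). The genes that rose were Kcna4 and Cacna2d1. The Cacna2d1 call (0.42) was lost without dnPI3K-Mst1 1649, with arrays labelled left alone and with centred arrays. It was also lost with the mean of the gene's probe sets and in the fit of all 16 Bmp10-high arrays. The other probe set of Cacna2d1 differed by 0.17. The pacemaker channel Hcn4 differed by 0.42 ± 0.15 (adjusted p = 0.059), by 0.26 without Ntg 1834, and was called without Ntg 1657 (0.55, adjusted p = 0.011). Cpne5, a gene enriched in the sinoatrial node, read 5.38, 5.08, 5.62 and 5.53 against 8.37, 8.28, 6.69 and 8.2 log2. It fell by 2.48 ± 0.28, or -2.88 without Ntg 1662. Of 13 tested sinoatrial node genes 3 fell, 2 rose and 8 were not called, with a median of -0.059. Cpne5 is among those that fell and Tbx18 among those that rose. How much nodal tissue each sample held was not tested.

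Genes of the kinase that the dnPI3K transgene targets showed no common direction. Of 37 tested genes of PI3K and insulin signalling 7 fell and 5 rose, with a median of 0.0076. Over all genes 11.4% were called lower and 12.8% higher. The rises include Pik3ca and the falls Pik3r1, whose levels add up native and any transgenic transcript. Igf1r, the receptor of insulin-like growth factor, rose by 0.90 ± 0.089 (adjusted p = 4.3e-06), and the adaptor Irs1 by 0.51. Igf2 (-1.06) and Igf1 (-0.53), ligands of that receptor, fell, and Akt2 fell by 0.33. Of 28 tested FoxO target and atrophy genes, which AKT restrains, 6 rose and 5 fell. Gabarapl1 of the autophagy machinery rose by 1.03 ± 0.090 and its relative Map1lc3a fell by 0.87. The ubiquitin ligases of muscle atrophy, Trim63 and Fbxo32, did not move together: Trim63 fell by 0.41 (adjusted p = 0.0048) and Fbxo32 differed by 0.23 (adjusted p = 0.16), or by 0.33 without Ntg 1834, where it was called.

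Apoptosis and protein-folding genes were split. Their counts are given beside the 12.8% of all genes called higher and the 11.4% called lower. Of 40 tested apoptosis genes 9 rose and 5 fell, and the falls lie near the share over all genes. Gadd45g rose and changed most among the called genes of the list. The rises also include the survival factors Bcl2 (1.12 ± 0.14, adjusted p = 3.3e-05) and Bcl2l1 (0.33). Those that fell include Cycs, Aifm1, Diablo and Endog, whose products reside in mitochondria, and the death-promoting Bcl2l11. The Bcl2l11 call was lost without dnPI3K-Mst1 1647 or 1649 or Ntg 1301 or 1834. Of 38 tested genes of the unfolded protein and integrated stress response 12 rose and 4 fell, and with arrays labelled left alone 6 rose. Atf4 and Ddit3, factors of this response, rose by 0.50 and 0.60, while Asns and Aldh1l2, both known as ATF4 targets, fell (-1.05 and -1.16). Of 24 heat shock genes 6 rose and 2 fell, with Hspb1 at 1.20 ± 0.17, and 2 rose with arrays labelled left alone. Of 37 cell cycle genes 2 rose and 2 fell; the 2 that rose were the D cyclins Ccnd1 (0.96) and Ccnd2 (0.61), and without Ntg 1301 5 rose. The falls, of Cdk2 and Ccne1, numbered 0 without dnPI3K-Mst1 1509 or 1647 or Ntg 1301 or 1657, and 1 without any one of the other arrays. Of 34 proteasome subunits 2 rose and 2 fell, and the cell cycle and proteasome counts lie below the 24.2% of all genes.

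Markers of other cells were compared for the same arrays, beside the 12.8% of all genes called higher and the 11.4% called lower. Of 27 tested macrophage and monocyte genes 7 rose and 0 fell. The count moved between 3 and 11 when 1 array was left out (3 without dnPI3K-Mst1 1649, 4 without dnPI3K-Mst1 1509, Ntg 1657 or Ntg 1834, 11 without Ntg 1301). Lgals3, galectin-3, which myocytes under stress also make, led them with 1.72. Of 18 interferon-stimulated genes 7 rose and 0 fell, with Ifit3 at 1.11 ± 0.13 (adjusted p = 1.9e-05), and 4 rose without dnPI3K-Mst1 1649. None of 8 T, NK and B lymphocyte genes was called by limma, though 1 was called higher without dnPI3K-Mst1 1647 and 1 with array weights. Of 6 tested neutrophil and mast cell genes 1 rose, 0 fell and 5 were not called, with a median of 0.095. The gene that rose was the mast cell protease Mcpt4, by 1.33 ± 0.17 (adjusted p = 4.5e-05). Of 17 endothelial markers 2 rose and 2 fell, with a median of -0.1. The rises were those of Vwf (1.19 ± 0.11, adjusted p = 3.4e-06) and Eng, and the falls those of Kdr and Cav1. Of 11 adipocyte markers 4 fell (Slc36a2, Car3, Lpl and Plin4) and 1 rose (Pparg), and of 12 mesothelial markers Gpm6a rose and Krt7 fell. The part of these cells in the other results was not tested.

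The Bmp10-low arrays of the same 8 animals show how far the pattern is shared by the other atrium. There 4044 genes (26.5%) were called between the genotypes, 2172 higher and 1872 lower. Of the genes called, 2607 were called in both kinds of array in the same direction, which is 70.7% of the calls in the Bmp10-high arrays and 64.5% of those in the Bmp10-low arrays, and 7 were called in opposite directions. The difference between the effects, tested on each animal's Bmp10-high minus Bmp10-low array, was called in 182 genes (1.19%), 78 with a higher and 104 with a lower value in the Bmp10-high arrays. Of the 3685 genes called in the Bmp10-high arrays 103 are among them. Ckm (-4.11 and -3.99), Nrg1 (3.79 and 3.57), Thbs4 (3.45 and 3.68) and Edn1 (2.75 and 3.11) are given as their differences in the Bmp10-high and Bmp10-low arrays, and the difference between these missed the threshold in all 4 (adjusted p = 0.80, 0.74, 0.71 and 0.48), which does not show that the effects are equal. Without dnPI3K-Mst1 1509 the 182 calls became 97 and without Ntg 1301 105.

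**Figure D4:**
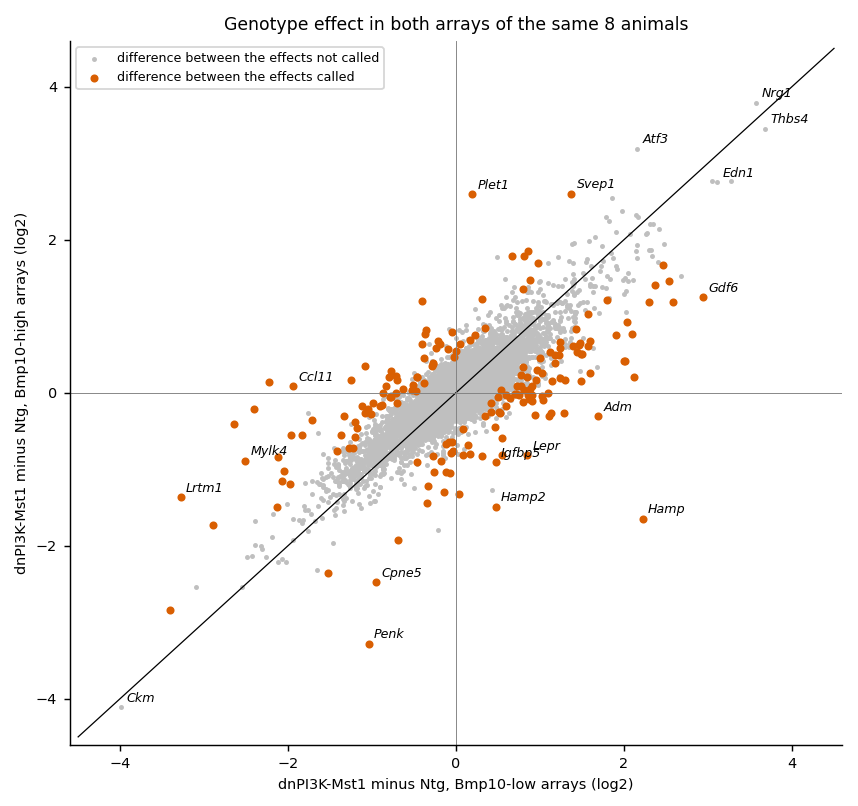
Difference dnPI3K-Mst1 minus Ntg (log2) in the Bmp10-high arrays (vertical axis) against the Bmp10-low arrays (horizontal axis) for 15237 genes, with the 182 genes whose effects differed in orange and the line of equal effects. Ckm, Nrg1 and Thbs4 lie near the line, and Plet1, Penk, Hamp and Adm lie far from it.

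Plet1, which encodes a surface protein of epithelia, had a rise that the Bmp10-low arrays did not show. It read 8.11, 8.2, 8.38 and 8.9 log2 in the Bmp10-high arrays of dnPI3K-Mst1 against 5.6, 5.94, 5.76 and 5.89 in Ntg, a rise by 2.59 ± 0.15 or 6.04-fold. In the Bmp10-low arrays it read 6.73, 6.3, 6.8 and 6.73 against 6.53, 6.47, 6.46 and 6.33, and the difference of the effects was 2.4 (adjusted p = 1.1e-05). The double transgenic arrays thus separated from Ntg in the Bmp10-high atrium and overlapped with Ntg in the other.

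Penk, the enkephalin precursor, fell from 9.67, 9.54, 9.49 and 9.42 log2 to 6.93, 5.43, 6.32 and 6.32 in the Bmp10-high arrays, a difference of -3.28 ± 0.22 or 9.73-fold (adjusted p = 9.7e-08). In the Bmp10-low arrays the groups overlapped, at 8.66, 7.93, 7.53 and 8.14 in Ntg and 7.68, 5.68, 7.19 and 7.54 in dnPI3K-Mst1, and the effects differed by -2.24 (adjusted p = 0.00013). Animal 1647 was the lowest in both arrays. Svep1, a large adhesion protein, rose by 2.60 ± 0.19 against 1.37 in the Bmp10-low arrays (difference 1.23, adjusted p = 0.0036), and Cpne5 differed by -2.48 against -0.95 (difference -1.53, adjusted p = 0.0022).

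Hamp, the gene of the iron hormone hepcidin, had opposite directions. In the Bmp10-high arrays it read 8.86, 9.09, 8.98 and 9.56 log2 against 10.45, 10.5, 11.12 and 11.02, a difference of -1.65 ± 0.17 (adjusted p = 4.9e-06). In the Bmp10-low arrays it read 8.53, 7.77, 9.23 and 8.99 against 7, 6.71, 6.08 and 5.84, a rise by 2.22 ± 0.31, and the effects differed by -3.87 (adjusted p = 0.00013). Ntg animals therefore had 4.37 log2 units more Hamp in the Bmp10-high array than in the other, and double transgenic animals 0.50. Its close copy Hamp2 fell by 1.49 ± 0.21 in the Bmp10-high arrays and differed by 0.47 in the others. The probe sets of Hamp and Hamp2 may each read both transcripts.

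Adm, the vasodilator adrenomedullin, differed by -0.31 ± 0.12 (adjusted p = 0.073) in the Bmp10-high arrays, a value called without dnPI3K-Mst1 1647 or Ntg 1662 or 1834 (-0.37 to -0.38), and rose by 1.69 ± 0.11 in the Bmp10-low arrays, from 6.52, 6.42, 6.35 and 6.21 log2 to 8.16, 8.23, 7.81 and 8.07. The effects differed by -2 (adjusted p = 1.9e-06). Between the arrays of an animal Adm differed by 2.84 in Ntg and by 0.84 in dnPI3K-Mst1. Ccl11, the chemokine eotaxin, and Hmcn2, a basement membrane protein, ran the other way, with -2.04 and -1.41 between the arrays in Ntg and -0.016 and -0.0047 in dnPI3K-Mst1 (difference of effects 2.03 and 1.4, adjusted p = 1.4e-05 and 3.5e-05). In these 3 genes a difference between the atria of Ntg was smaller in the double transgenic.

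**Figure D5:**
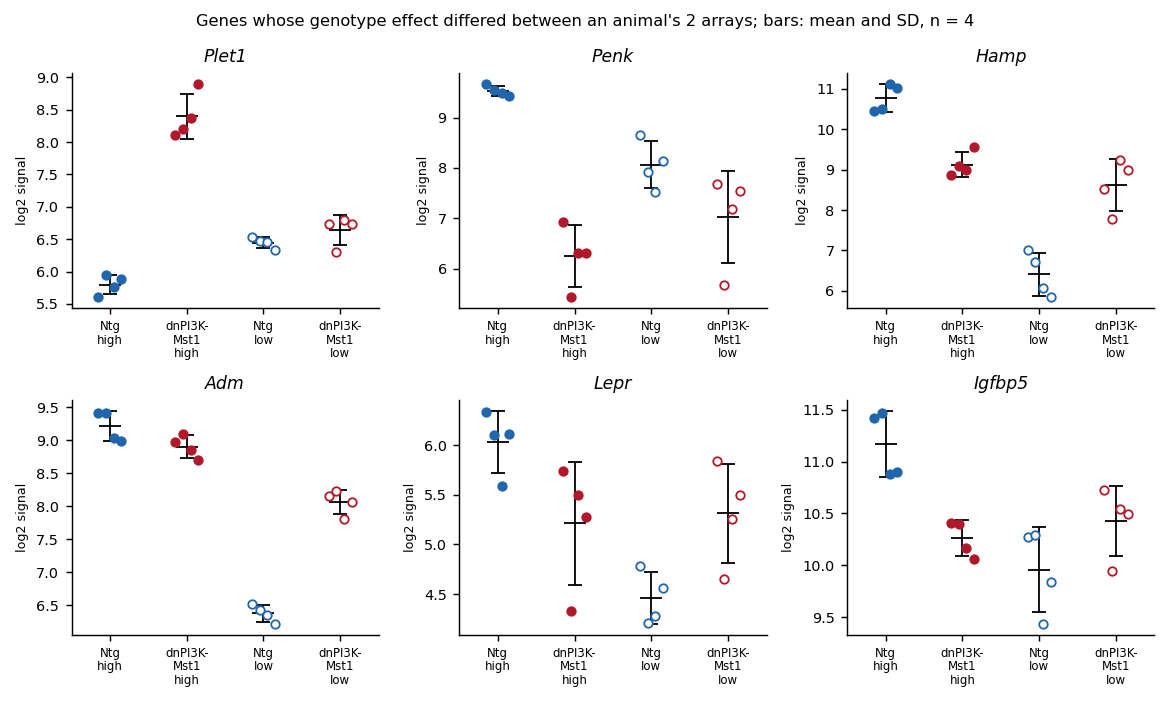
Log2 signal (vertical axis) of Plet1, Penk, Hamp, Adm, Lepr and Igfbp5 in Bmp10-high (filled) and Bmp10-low (open) arrays by genotype, with mean and SD of 4 arrays. In Hamp and Adm the 2 kinds of array lie further apart in Ntg (4.37 and 2.84 log2 units) than in dnPI3K-Mst1 (0.50 and 0.84).

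The same was counted over all genes, as a description, since Bmp10 defined the 2 kinds of array. Leaving Bmp10 out, the median absolute difference between the arrays of an animal's genotype was 0.1 log2 in Ntg and 0.071 in dnPI3K-Mst1. A difference of 2-fold or more was found in 94 genes in Ntg and 29 in dnPI3K-Mst1. Among the 182 genes whose effects differed, 144 (79.1%) had the smaller absolute difference in dnPI3K-Mst1, against 58.7% of all genes. In Ntg each side label holds arrays of both kinds, and in dnPI3K-Mst1 all Bmp10-high arrays are labelled left.

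Further genes whose effects differed between the atria include a kinase, ligands and receptors. Mylk4, a myosin light chain kinase, fell by 0.89 ± 0.14 in the Bmp10-high arrays and fell by 2.51 ± 0.21 in the Bmp10-low arrays, and Lrtm1 differed by -1.37 against -3.28. Gdf6, a BMP family ligand, rose by 1.25 ± 0.12 against 2.94, and Tbx20, a cardiac transcription factor, by 0.51 against 1.49 (adjusted p of the difference 7.4e-05, 0.00025, 0.00014 and 0.0011). Lepr, the leptin receptor, fell by 0.82 ± 0.24 in the Bmp10-high arrays and rose by 0.85 in the others (difference -1.67, adjusted p = 0.00013), though its fall was lost without Ntg 1301 (-0.72, adjusted p = 0.059) and was -0.52 without dnPI3K-Mst1 1647. Igfbp5, which binds insulin-like growth factors, fell by 0.91 ± 0.14 where the others differed by 0.47 (difference -1.38, adjusted p = 0.0011). Postn and Col1a1 had a larger difference in the Bmp10-low arrays, 0.87 and 1.57 against -0.089 and 0.61 (difference -0.96 for each, adjusted p = 0.0044 and 0.036).

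The MHC class II genes, which antigen-presenting cells use to show peptides to T cells, differed between the atria. In the Bmp10-high arrays none of 8 tested genes was called by limma, and the median difference was -0.2. Without Ntg 1301 2 of them were called lower, H2-Aa (-0.48, adjusted p = 0.036) and H2-Eb1 (-0.41, adjusted p = 0.017), and with arrays labelled left alone 1, H2-Eb1 (-0.40). In the Bmp10-low arrays 4 rose, Cd74 by 1.13 ± 0.31, H2-Aa by 1.11, H2-Ab1 by 1.28 and H2-Eb1 by 0.94. The effects differed by -1.4, -1.41, -1.54 and -1.23 (adjusted p = 0.00028, 0.00031, 0.00018 and 0.00017).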

How the data were processed

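RNA from atria (Trizol, 100 ng per array, per the labels' protocols) was hybridised to 1-colour arrays of 35512 probe sets. The deposited values are the authors' processed signals. Expression Console and PLIER are named, without version or role, in the submitters' processing notes. The log2 scale of the deposited values was inferred from their range and is not stated per the labels. Values were used as deposited. Of the probe sets 21789 have 1 gene symbol, 1621 several and 12102 none in the platform annotation; the brightest of a gene's probe sets was used (999 of 19938 genes have several). Genes with a mean of at least 4.47 log2 (the 30th percentile) were tested with limma 3.58.1 in R 4.3.3 (lmFit, eBayes with trend), with Benjamini-Hochberg adjustment over all 15237 and a threshold of 0.05. The difference of effects was tested on each animal's difference of arrays, with the prior trend over the mean level. The scripts were tested on simulated data.

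Members and gene lists were chosen with earlier results of these data known. Named genes include the 15 largest non-overlapping rises and falls, with Xist, Y-linked genes and unnamed gene models left out before ranking. They also include up to 5 called members of each list and a set of fixed genes. The 10 genes with the smallest p for the difference between atria were added, unnamed models and sex-linked genes again left out. Other genes named, such as Erbb4, Hbegf, Slc2a1, Cs, Lats1, Ankrd1, Fos, Fn1, Bmp6, Trim63, Postn and those with a promoter motif, were chosen after their values were seen. Alternatives changed the arrays fitted, filter, scaling, weights, prior and probe-set rule, or left out 1 array.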

Additional observations from a re-analysis of the deposited data

Results flagged for a closer look

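A single array stood apart from the other 3 of its genotype in 21 of the 358 groups of 4 examined, and chance alone flags about 1 in 20. The measure was the ratio of its gap to the range of the group on rounded values, so small gaps are flagged too. Ntg 1301 stood apart in Cs (highest at 10.85 log2, with the others at 10.83). Ntg 1657 stood apart in Cd44 (highest at 6.00 log2). Ntg 1662 stood apart in Ajuba (lowest at 5.84 log2), Cpne5 (lowest at 6.69 log2), Gja5 (lowest at 9.49 log2), Hmcn2 (lowest at 5.41 log2), Idh3b (highest at 11.72 log2) and Slc6a8 (highest at 7.99 log2). Ntg 1834 stood apart in Cdk2 (lowest at 6.80 log2), Fbxo32 (highest at 8.83 log2) and Plin4 (highest at 7.39 log2). dnPI3K-Mst1 1509 stood apart in Igf2 (lowest at 8.07 log2), Kcnj3 (highest at 9.43 log2) and Mylk4 (highest at 8.34 log2). dnPI3K-Mst1 1647 stood apart in Col8a1 (highest at 8.35 log2), Kcnd3 (lowest at 5.64 log2) and Tfam (lowest at 6.25 log2). dnPI3K-Mst1 1649 stood apart in Hk2 (highest at 8.45 log2) and Lats1 (highest at 8.05 log2). dnPI3K-Mst1 1650 stood apart in Atp5g3 (highest at 10.89 log2, with the others at 10.82 to 10.83) and Ccnd1 (highest at 9.64 log2).

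The effect of the genotype differed between the atria, by the test on each animal's difference of arrays, in 25 of the genes named. The log2 difference in the Bmp10-high arrays was above that in the Bmp10-low arrays in Ace (0.73), Ccl11 (2.03), Ckmt2 (0.57), Hmcn2 (1.4), Hrc (1.16), Lrtm1 (1.92), Mylk4 (1.62), Plet1 (2.4) and Svep1 (1.23). It was below it in Adm (-2.0), Bmp4 (-0.79), Cd74 (-1.4), Col1a1 (-0.96), Cpne5 (-1.53), Gdf6 (-1.69), H2-Aa (-1.41), H2-Ab1 (-1.54), H2-Eb1 (-1.23), Hamp (-3.87), Hamp2 (-1.96), Igfbp5 (-1.38), Lepr (-1.67), Penk (-2.24), Postn (-0.96) and Tbx20 (-0.98). Ckmt2, Hrc, Ace and Bmp4 kept 1 direction in both atria.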

How the results depend on the processing

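Of 5576 gene differences recomputed under the alternatives for 294 genes, 273 lost their call and 16 gained one. Another 5 reversed direction where the main or the alternative fit was called. The remaining 5282 stayed on the same side of the threshold. Changes of direction between values not called are counted among these 5282. A call was lost on leaving out 1 array in 30 genes. Calls between the genotypes ranged from 2899 to 3447 on leaving out 1 array (1463 to 1877 higher, 1436 to 1725 lower), with 3685 in the full set. Fitting all 16 Bmp10-high arrays gave 1239 higher and 1301 lower, and arrays labelled left alone 2868, of which 2653 were shared. The mean of an animal's 2 arrays reversed Hamp (0.29), Adm (0.69), Ccl11 (-0.93), Hmcn2 (-0.54) and Lepr (0.018), since it averages in the other atrium. Among lists with most tested members called, the median reversed for the neuregulin list with arrays labelled left (-0.019) and centred arrays (-0.0019). It also reversed for lymphatic endothelium above the 50th percentile (-0.037). The cause was not tested. Differences between atria were called in 97 (without dnPI3K-Mst1 1509) to 193 genes on leaving out 1 animal, 105 without Ntg 1301, and in 133 with the prior trend over the mean difference, an alternative chosen after seeing the data. No paired analysis was possible because the animals of the groups share no number. The 4 arrays a group limit the precision.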

Other observations

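Counts in 4 further lists are given beside the 12.8% of all genes called higher and the 11.4% called lower. Of 21 tested autonomic receptors and G-protein regulators 7 rose and 4 fell, the largest fall being that of Rgs2, a brake on G-protein signals (-1.16). Of 30 cardiac transcription factors 6 rose, with Sox9 (0.71) and Tbx18 (0.58) among them, and 2 fell, the larger fall being that of Hey1 (-0.65). Of 6 lymphatic markers Mmrn1 (1.52) and Reln (1.04) rose and Lyve1 (-0.80) and Prox1 fell, the Prox1 call being lost without dnPI3K-Mst1 1647, 1649 or 1650 or Ntg 1657 or 1834. Of 11 nerve markers Uchl1 (2.09) and Ncam1 (0.85) rose and Dbh (-0.54) fell, with a median of 0.0025. Uchl1 is also on the list of muscle ankyrin repeat and stress genes. The call of Sox10 as higher (0.26) was lost on leaving out any one of the 8 arrays.

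Of 14 clock genes Per1 (0.45) and Nr1d1 (0.31) were called higher. Per1 lost its call on leaving out any one of 6 arrays (dnPI3K-Mst1 1647, 1649 or 1650, Ntg 1301, 1657 or 1662) and Nr1d1 any one of 5 (dnPI3K-Mst1 1509, 1647 or 1650, Ntg 1657 or 1834). With arrays labelled left alone or centred arrays 0 clock genes were called higher.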
